A study of Mus musculus with 6 samples.

Results

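The semaphorins, plexins and neuropilins are 31 of the 52550 genes in the deposited table. They were taken by symbol: all semaphorins of classes 3 to 7 (20 genes), all plexins of the families A to D (9 genes) and both neuropilins. That choice was made with earlier results of these data known. No symbol was repeated. The RNA came from macrophages of C57BL/6 mice, grown from bone marrow for 7 days with M-CSF, their growth factor, at 25 ng/ml. In 1 group of 3 samples the cells were then given medium of normal chondrocytes (C CM, libraries C1, C2 and C3), in the other group of 3 medium of apoptotic chondrocytes (AC CM, libraries AC1, AC2 and AC3). No genetic change is named for either group, and the sources used here do not give the exposure time, the animals' age or how apoptosis was brought about. Whether libraries of 1 group came from separate animals or cultures is not stated, so the p-values speak for the spread among these libraries alone, and that spread may be technical.

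Semaphorins are guidance ligands that share a large extracellular sema domain. Class 3 members are secreted, classes 4 to 6 span the membrane, and Sema7a is held by a lipid anchor. Most bind plexins, receptors whose cytoplasmic part acts on small GTPases and so on the cytoskeleton and adhesion. Class 3 ligands usually need a neuropilin, a receptor with a short cytoplasmic tail that also binds vascular endothelial growth factors. In myeloid cells the families are known for roles in migration, in contact with T cells and in osteoclast formation.

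Levels are given in CPM, a gene's counts relative to its library's size after TMM scaling, with the SD over n = 3 samples. Library totals ran from 65630784 to 80105872 counts. Changes are log2 fold changes of AC CM over C CM, with the standard error (SE) and the adjusted p of edgeR's quasi-likelihood test over all 17863 genes tested. A gene is said to rise or fall only at an adjusted p under 0.05. The cells had the markers of the labelled type in every library: the 6 macrophage genes (Adgre1, Cd68, Csf1r, Mertk, Fcgr1 and Mrc1) summed to 9210 to 10100 CPM after C CM and 8740 to 9100 CPM after AC CM. Within that list 1 gene rose and 2 fell: Mrc1, the mannose receptor gene, rose 1.45-fold (adjusted p = 0.00349), Csf1r, the M-CSF receptor gene, fell 1.64-fold (adjusted p = 4.41e-05) and Mertk fell 1.32-fold (adjusted p = 0.00277).

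Of the 31 genes, 30 had enough counts to be tested. After AC CM 4 rose (Nrp1, Nrp2, Plxnd1 and Sema4c) and 9 fell (Plxna4, Plxnb1, Plxnb2, Sema4a, Sema4b, Sema4d, Sema5a, Sema6d and Sema7a), while 17 did not pass. Among all genes tested, 26.5% passed, 13.3% higher and 13.3% lower. The 13 are 43.3% of the members tested. Rises were at the background share and falls above it, a description with no test of the list. The median log2 fold change was -0.29 over the members tested and -0.005 over all genes, and the median absolute change was 0.55 against 0.30. Only Sema4a and Plxna4 passed with a change of at least 2-fold, against 6.24% of all genes. The groups did not overlap in CPM for 8 genes that lay above and 15 that lay below after AC CM, while 7 overlapped. Among all genes, 44.7% did not overlap, 22.6% above and 22.1% below.

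**Figure D1:**
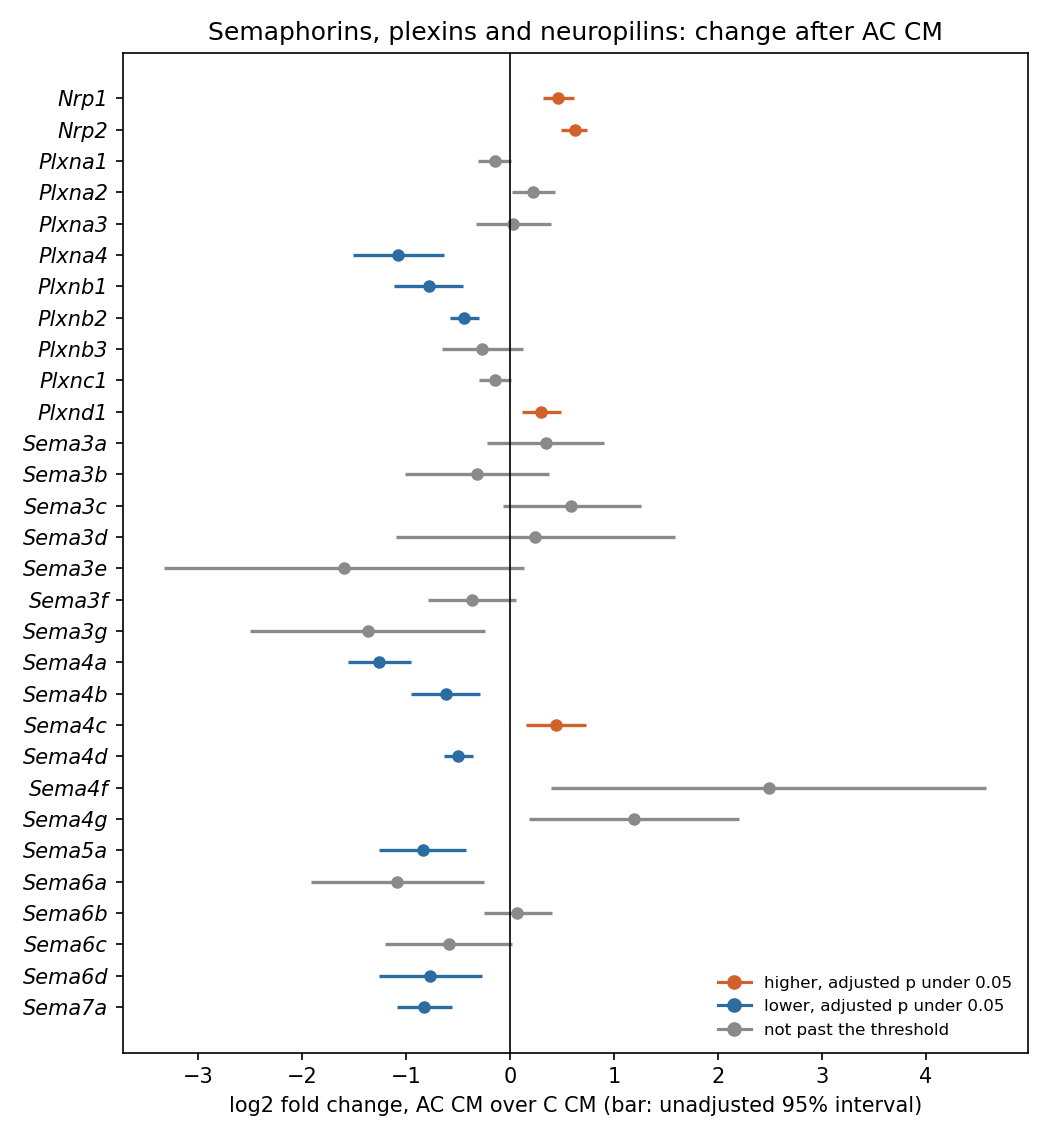
Log2 fold change of AC CM over C CM (x axis) for each of the 30 members tested (y axis), with the 95% interval not adjusted for the number of genes as a bar. Both neuropilins lie right of 0 with short bars, most membrane-bound semaphorins that pass lie left of it, and Sema4f, Sema3e, Sema3d, Sema3g and Sema4g have the widest bars.

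Both neuropilin genes were abundant and both rose. Nrp2, which pairs mainly with Sema3f and with VEGF-C, was at 357, 370 and 350 CPM after C CM and at 555, 552 and 542 CPM after AC CM, in the order of the library numbers. Every AC CM library was above every C CM library, and the spread within AC CM was small (550 ± 7.01 against 359 ± 10.2 CPM). It rose 1.53-fold (log2 fold change 0.62, SE 0.06, adjusted p = 9.14e-05). Nrp1, the receptor for Sema3a and for VEGF-A, was at 374, 421 and 405 CPM after C CM and at 547, 562 and 544 CPM after AC CM, again with no overlap. It rose 1.38-fold (log2 fold change 0.46, SE 0.06, adjusted p = 9.07e-04). With any 1 library left out, the log2 fold change stayed between 0.60 and 0.64 for Nrp2 and between 0.42 and 0.50 for Nrp1, and both remained past the threshold. Neuropilins are also endothelial genes. The 6 endothelial markers tested (Pecam1, Cdh5, Tek, Emcn, Tie1 and Egfl7) all fell, from a sum of 72.8 to 87.1 CPM to a sum of 25.4 to 26.2 CPM, the opposite direction. The part of endothelial cells in the neuropilin values was not tested.

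Nrp1 lies on chromosome 8 (128358604 to 128503363, plus strand) and Nrp2 on chromosome 1 (62703285 to 62818695, plus strand), in coordinates that match GRCm38. The stretches around their RefSeq starts (GRCm38.p6, 250 bases before to 50 after the start) are shown because the pair rose together. These windows and the motifs searched were chosen after the values were seen, and a match is a description of the letters only. Capitals mark matches to GGGCGG (a GC box) or GAGGAA (the core bound by the myeloid factor PU.1) on either strand.
Nrp1, chr8:128358823-128359122, plus strand: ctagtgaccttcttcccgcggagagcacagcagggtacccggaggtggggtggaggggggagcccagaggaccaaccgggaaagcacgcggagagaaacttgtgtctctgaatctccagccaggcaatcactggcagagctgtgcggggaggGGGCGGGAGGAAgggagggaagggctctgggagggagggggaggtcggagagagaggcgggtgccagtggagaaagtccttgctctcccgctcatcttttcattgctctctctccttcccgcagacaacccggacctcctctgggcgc
Nrp2, chr1:62703067-62703366, plus strand: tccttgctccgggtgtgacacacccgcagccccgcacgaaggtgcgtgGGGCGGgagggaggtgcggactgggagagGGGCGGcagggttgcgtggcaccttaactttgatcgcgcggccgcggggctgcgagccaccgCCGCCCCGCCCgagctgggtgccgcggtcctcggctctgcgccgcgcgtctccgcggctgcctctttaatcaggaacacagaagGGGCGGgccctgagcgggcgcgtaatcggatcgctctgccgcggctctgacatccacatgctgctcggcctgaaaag
Nrp2 had 5 GC boxes and no GAGGAA. Nrp1 had 1 of each, next to each other in 1 capital run. Of all 32851 promoter windows of this length, 35.7% hold GGGCGG and 28.3% hold GAGGAA.

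Among the plexins, 1 rose, 3 fell and 5 did not pass. Plxnd1, the receptor for Sema3e and a receptor of Sema4a, was at 366, 307 and 292 CPM after C CM and at 392, 398 and 397 CPM after AC CM. C1 came closest to the AC CM libraries, but the groups did not overlap. The log2 fold change was 0.30 (SE 0.09, adjusted p = 0.0303). Without C1 the log2 fold change was 0.40 and the call held (adjusted p = 2.36e-04). It was lost without C2 (adjusted p = 0.107), C3 (0.0963), AC1 (0.0925), AC2 (0.100) or AC3 (0.0965), at log2 fold changes of 0.23 to 0.30.

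The B plexins, receptors of class 4 semaphorins, were lower where they passed. Plxnb2 was at 1180, 1080 and 1060 CPM after C CM and at 811, 825 and 814 CPM after AC CM. The groups lay well apart, and the fall was 1.36-fold (log2 fold change -0.44, SE 0.06, adjusted p = 9.67e-04). Plxnb1, the high-affinity receptor of Sema4d, was at 10.3, 7.91 and 9.25 CPM after C CM and at 5.73, 5.39 and 4.83 CPM after AC CM. It fell 1.72-fold (log2 fold change -0.78, SE 0.15, adjusted p = 0.00486). An antisense gene, Gm7628, shares 257 exonic bases with Plxnb1, but it had at most 21 counts in any library. Plxnb3 did not pass (12.6 ± 1.34 against 10.4 ± 2.23 CPM, log2 fold change -0.27, 95% interval -0.66 to 0.12).

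The A plexins are receptors of class 6 semaphorins and, with a neuropilin, of class 3. Plxna4 had the largest plexin change among those that passed: 3.23, 4.08 and 3.39 CPM after C CM and 1.75, 1.69 and 1.63 CPM after AC CM. That is a 2.11-fold fall (log2 fold change -1.08, SE 0.19, adjusted p = 0.00348), at 123 to 279 counts per library. Plxna1, which forms a complex with Trem2 and Tyrobp in myeloid cells, did not pass. It was at 246 ± 20.8 and 222 ± 3.12 CPM, and the 95% interval of its log2 fold change ran from -0.31 to 0.01. An antisense gene, Gm26811, shares 970 exonic bases with it and had 255 to 424 counts per library. Plxna2 was 1.17-fold higher (19.4 ± 0.678 against 22.7 ± 0.681 CPM) with no overlap, but did not pass (adjusted p = 0.0984). Plxna3 was at 10.1 ± 1.52 and 10.4 ± 1.58 CPM. Plxnc1, the receptor of Sema7a, was at 180 ± 11 and 163 ± 5.57 CPM (log2 fold change -0.15, adjusted p = 0.146).

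**Figure D2:**
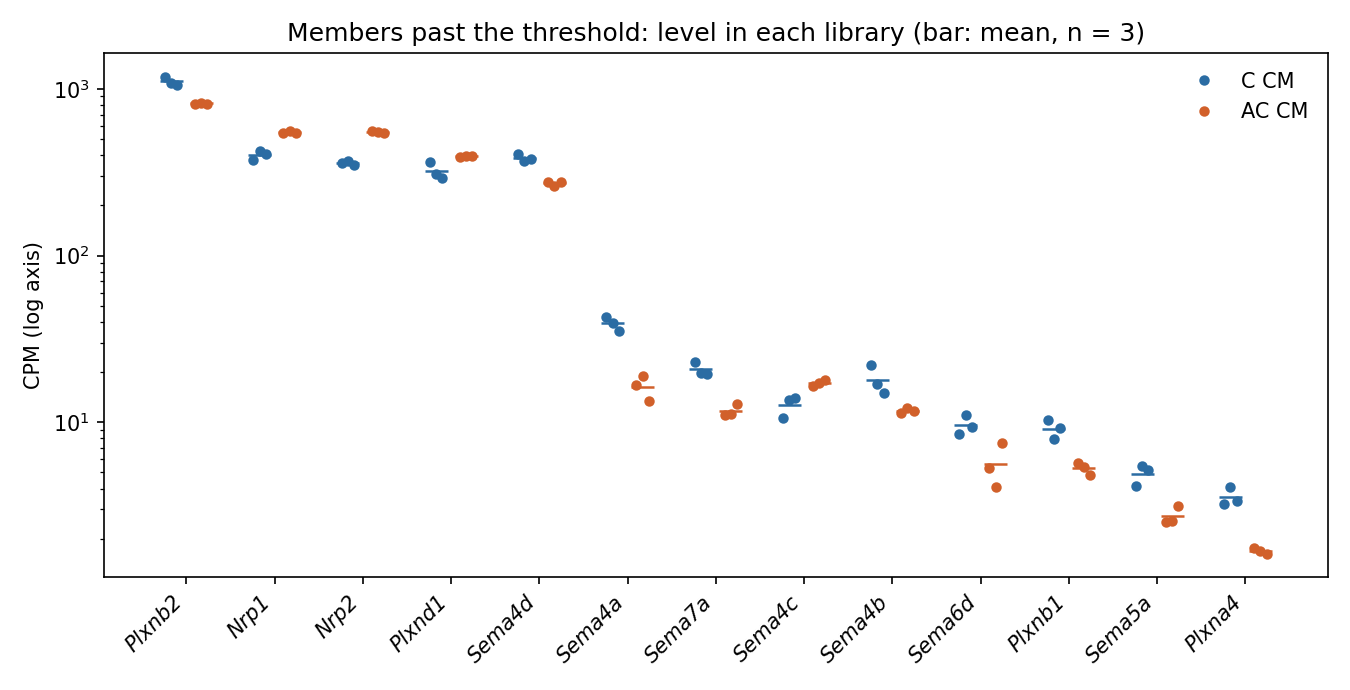
CPM on a log axis (y axis) in each library for the 13 members past the threshold (x axis, ordered by mean level). Each point is 1 library and each short bar a group mean. The groups do not overlap for any of the 13 genes.

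Class 4 holds the semaphorins best known in immune cells, and 3 of its 6 genes fell while 1 rose. Sema4a, a ligand that takes part in T cell priming, had the largest called change of all members. It was at 42.7, 39.5 and 35.2 CPM after C CM and at 16.7, 18.9 and 13.5 CPM after AC CM. The lowest C CM library was well above the highest AC CM library, and the fall was 2.39-fold (log2 fold change -1.26, SE 0.13, adjusted p = 2.3e-04). Sema4d, also called CD100, a ligand of Plxnb1, Plxnb2 and Cd72, was at 405, 371 and 382 CPM after C CM and at 276, 263 and 278 CPM after AC CM. It fell 1.42-fold with a small spread (log2 fold change -0.50, SE 0.06, adjusted p = 4.67e-04). Sema4b was at 22.0, 17.0 and 15.0 CPM after C CM and at 11.3, 12.1 and 11.7 CPM after AC CM. Its log2 fold change was -0.62 (SE 0.15, adjusted p = 0.0143), and the call was lost without AC1 (0.0546) or AC3 (0.0504).

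Sema4c, a ligand of Plxnb2, was the only semaphorin that rose, from 10.6, 13.6 and 13.9 CPM to 16.5, 17.2 and 18.0 CPM. The groups did not overlap (log2 fold change 0.44, SE 0.13, adjusted p = 0.0340). The call was lost without C2 (adjusted p = 0.0541) or AC1 (0.0715), AC2 (0.0938) or AC3 (0.107). The opposite-strand transcript D430040D24Rik shares 334 exonic bases with Sema4c and had 26 to 56 counts per library. Sema4f and Sema4g did not pass with edgeR, and are described here because their estimates were the largest positive values, a choice made after the values were seen. Sema4f had 25, 0 and 28 counts after C CM and 125, 113 and 101 after AC CM (log2 fold change 2.49, SE 0.89, adjusted p = 0.0816). Without C2, the library at 0, it was at 1.90 with an adjusted p of 0.00895. DESeq2 (adjusted p = 0.00636), limma-voom (0.0361) and counts divided by 4 (0.00948) also placed it past the threshold. In the authors' deposited table it passed too, with an adjusted p of 0.00976.

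Sema4g had 72, 52 and 24 counts after C CM and 81, 114 and 194 after AC CM (log2 fold change 1.19, SE 0.45, adjusted p = 0.0812). AC3 stood highest. Liver transcripts varied the same way over the AC CM libraries: 6 hepatocyte genes (Alb, Apoa1, Apoa2, Ttr, Serpina1a and Fgb) summed to 43.7, 537 and 1200 CPM in AC1, AC2 and AC3, against 0.478 to 38.8 CPM after C CM. It passed with DESeq2 (adjusted p = 0.0449) and without C1 (0.0455). With AC2 and AC3 left out Sema4g was at 0.63 (adjusted p = 0.627). The part of liver RNA in the Sema4g value was not tested.

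Sema7a, a ligand of Plxnc1 and of beta 1 integrins, was at 23.0, 19.8 and 19.6 CPM after C CM and at 11.1, 11.2 and 12.9 CPM after AC CM. The groups were far apart, and the fall was 1.78-fold (log2 fold change -0.83, SE 0.12, adjusted p = 0.00104). Sema6d, a ligand of Plxna1 and Plxna4, was at 8.48, 11 and 9.34 CPM and then at 5.35, 4.11 and 7.48 CPM. AC3 was closest to the C CM range. The log2 fold change was -0.77 (SE 0.22, adjusted p = 0.0297), and the call was lost without C2 (0.103), C3 (0.0659), AC1 (0.0920) or AC2 (0.0897). Sema5a, which carries thrombospondin repeats beside its sema domain, was low, at 4.15, 5.45 and 5.15 CPM after C CM and 2.53, 2.56 and 3.15 CPM after AC CM. It fell 1.79-fold (log2 fold change -0.84, SE 0.18, adjusted p = 0.00969).

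Sema4a lies on chromosome 3 (88435959 to 88461182, minus strand) and Sema7a on chromosome 9 (57940112 to 57962865, plus strand). Their windows are shown because they had the largest falls among the semaphorins above 5 CPM. Of 4 starts of Sema4a, the one nearest the gene's outer end was taken. Capitals mark the same letters as above.
Sema4a, chr3:88461133-88461432, minus strand: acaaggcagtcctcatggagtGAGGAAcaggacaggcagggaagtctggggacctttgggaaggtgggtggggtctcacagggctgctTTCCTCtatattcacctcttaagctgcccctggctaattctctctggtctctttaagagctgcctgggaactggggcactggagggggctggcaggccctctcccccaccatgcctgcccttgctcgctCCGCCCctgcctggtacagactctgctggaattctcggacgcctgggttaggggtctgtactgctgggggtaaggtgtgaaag
Sema7a, chr9:57939862-57940161, plus strand: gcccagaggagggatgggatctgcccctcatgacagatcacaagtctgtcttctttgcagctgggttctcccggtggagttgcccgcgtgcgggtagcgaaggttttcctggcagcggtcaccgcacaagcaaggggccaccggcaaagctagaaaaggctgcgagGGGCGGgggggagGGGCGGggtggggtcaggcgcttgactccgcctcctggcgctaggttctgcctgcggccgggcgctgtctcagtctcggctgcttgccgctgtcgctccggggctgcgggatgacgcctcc
Sema4a had 2 GAGGAA matches, 1 on each strand, and 1 GC box, and Sema7a had 2 GC boxes and no GAGGAA. RefSeq windows were at hand for 26 of the 31 members and for 12 of the 13 that passed. GGGCGG occurred in 4 of the 4 genes that rose and in 7 of the 8 that fell, against 35.7% of all windows. GAGGAA occurred in 2 (Nrp1 and Plxnd1) and 2 (Sema4a and Sema4b) of them, against 28.3%. Most members that did not pass also held GGGCGG: Plxna2, Plxna3, Plxnc1, Sema3c, Sema3e, Sema3g, Sema4g, Sema6b and Sema6c. Plxnb3, Sema3a, Sema3d and Sema4f did not, nor did Sema5b, which was not tested. So GGGCGG was not particular to the members that passed. Each member entered with 1 window, while all windows include several starts of some genes. TGANTCA (AP-1) was in Sema4c, CACGTG (an E-box) in Sema6d and TATAAA in none of the 12, against 7.81%, 7.15% and 13.6% of all windows.

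The 7 class 3 genes, which encode the secreted ligands of the neuropilin and plexin complexes, were low and none passed. Their counts ran from 4 to 405 per library and their mean levels from 0.216 to 4.69 CPM. Sema3f was the most abundant (5.28 ± 1.07 against 4.09 ± 0.357 CPM, log2 fold change -0.37, adjusted p = 0.186). Sema3a was at 2.64 ± 0.210 and 3.34 ± 0.992 CPM. Log2 fold changes ran from -1.60 for Sema3e to 0.59 for Sema3c, and adjusted p from 0.0750 for Sema3g to 0.807 for Sema3d. Sema3d was at 19, 48 and 94 counts over the AC CM libraries, in the same order as the liver transcripts, and its sign turned from 0.24 to -1.11 with AC2 and AC3 left out. At these depths the intervals were wide: for Sema3e the 95% interval of the log2 fold change ran from -3.33 to 0.13. Of the other members that did not pass, Sema6b was at 16.8 ± 3.39 and 17.6 ± 0.501 CPM (interval -0.25 to 0.40), while Sema6a (-1.09, adjusted p = 0.0581) and Sema6c (-0.59, adjusted p = 0.140) were at under 2 CPM. Sema5b had 4 counts in C3 and 0 in the others, and was not tested.

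Most markers of other marrow cells moved in the same direction as the semaphorins that fell. Of the dendritic cell genes, 6 of 7 fell. The 7 summed to 56.0 to 69.1 CPM after C CM and 14.9 to 16.3 CPM after AC CM. Itgax made up most of that sum (48.5 ± 7.87 against 12.7 ± 0.834 CPM), and the others were low. All 7 neutrophil genes fell (823 to 957 against 169 to 186 CPM), 4 of 5 monocyte genes (604 to 751 against 226 to 267 CPM), and 4 of 5 lymphocyte genes tested (23.6 to 30.0 against 9.63 to 9.76 CPM). Cd79b made up most of the lymphocyte sum (20.5 ± 2.57 against 8.65 ± 0.122 CPM). Of 6 fibroblast genes 4 fell (3980 to 5020 against 3190 to 3290 CPM), a sum mostly of Col1a1 and Col1a2. Dcn (14.8 ± 1.13 against 16 ± 1.21 CPM) and Lum (2.37 ± 0.509 against 3.38 ± 0.174 CPM) went the other way. Neither passed, but the groups did not overlap for Lum. The part of these cells in the values of Sema4a, Sema4d, Sema7a and the other members that fell was not tested. In bulk RNA, fewer cells of a type and less RNA per cell cannot be told apart. Of 7 chondrocyte genes 5 were tested and 1 rose, with a sum over the 7 of 70.8 to 82.8 CPM after C CM and 108 to 110 CPM after AC CM. The gene that rose was Col11a1 (35.6 ± 1.67 against 62.5 ± 1.58 CPM). Col2a1, the other abundant gene of that list, did not pass (38.3 ± 4.24 against 43.7 ± 2.3 CPM), nor did Sox9.

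Per kilobase of exon, which allows levels of different genes to be compared, Plxnb2 was the most abundant member in both groups (143 CPM per kilobase after C CM and 106 after AC CM). After C CM the next levels were those of Sema4d (50.3), Plxnd1 (44.1) and Nrp1 (40.9 CPM per kilobase), whose ranges overlapped from each to the next. Nrp2 (30.3) overlapped with Plxna1 (27.2), and Plxnc1 (21.6 CPM per kilobase) lay below both. After AC CM the order of levels was Nrp1 (56.3), Plxnd1 (54.2), Nrp2 (46.4), Sema4d (35.5), Plxna1 (24.5) and Plxnc1 (19.5 CPM per kilobase), with no overlap between neighbours. So Sema4d, above Plxnd1 and Nrp1 in each C CM library, lay below Nrp1, Plxnd1 and Nrp2 after AC CM. All other members were at under 8 CPM per kilobase in both groups. The summed level per kilobase of the 20 semaphorins was 77.7 ± 4.36 after C CM and 55.4 ± 1.04 after AC CM, and Sema4d made up 64.7% and 64.0% of it. The plexins summed to 242 ± 15.5 and 209 ± 1.99 CPM per kilobase, and the neuropilins to 71.2 ± 2.98 and 103 ± 1.35. None of these sums overlapped between the groups, and no test was made of them.

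**Figure D3:**
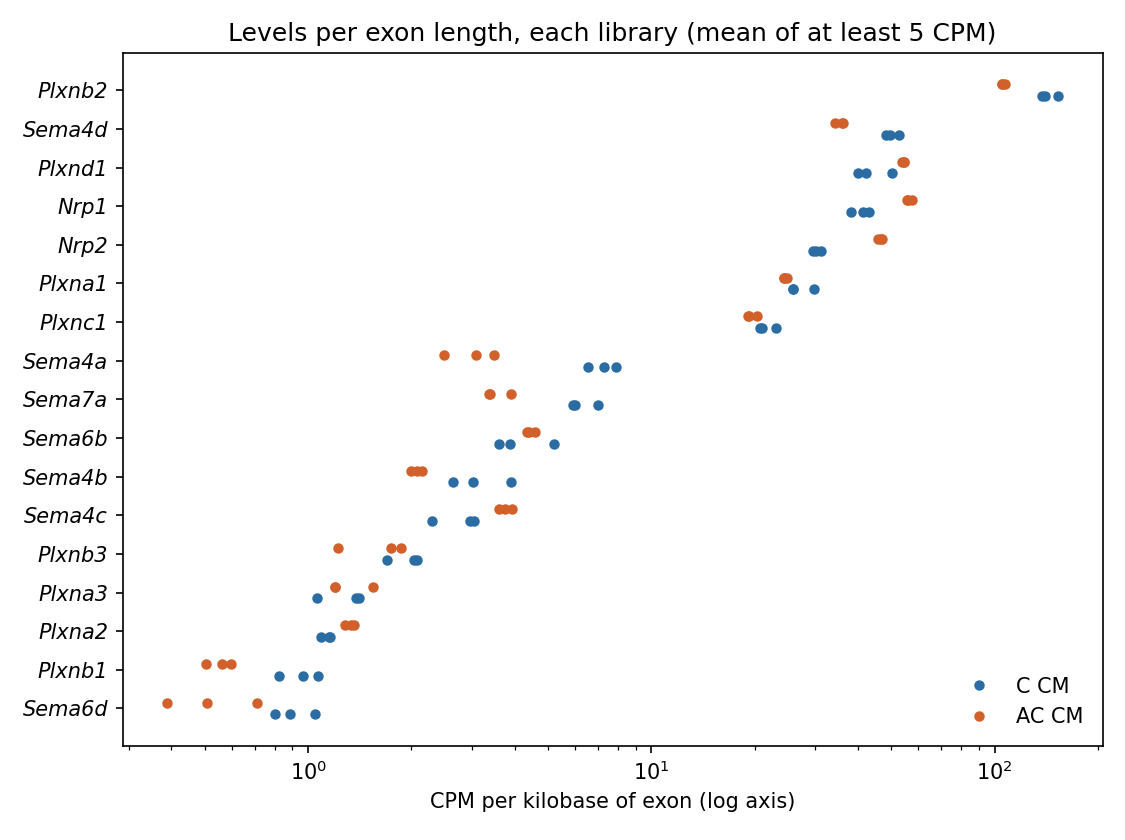
CPM per kilobase of exon on a log axis (x axis) in each of 3 C CM and 3 AC CM libraries, for the 17 members with a mean of at least 5 CPM (y axis, ordered by the C CM mean). Plxnb2 is highest in both groups, and Nrp1, Nrp2 and Plxnd1 pass Sema4d from C CM to AC CM.

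Ligands and their known receptors are set side by side from the values above. For Sema4d, the ligand (-0.50) and the receptors Plxnb1 (-0.78) and Plxnb2 (-0.44) all fell, while the receptor gene Cd72 did not pass (232 ± 6.33 against 258 ± 13.9 CPM, log2 fold change 0.15, adjusted p = 0.122). For Sema4a, the ligand fell by 1.26 on the log2 scale while Plxnd1 was at 0.30, a call that depended on single libraries as given above. The B plexins Plxnb1 and Plxnb2, from the family named above for class 4, fell as Sema4a did. Timd2, another Sema4a receptor gene, had too few counts to be tested. For Sema4c, the ligand was higher (0.44) while its receptor Plxnb2 was lower (-0.44). For Sema7a, the ligand was at -0.83, Plxnc1 did not pass and the integrin subunit gene Itgb1 rose from 656, 738 and 752 CPM to 977, 954 and 980 CPM (log2 fold change 0.44, SE 0.07, adjusted p = 0.00146). The integrin subunit gene Itga1 of the same partner list, named after its values were seen, did not pass. It was at 20.8 ± 1.36 and 18.8 ± 1.85 CPM with overlap (log2 fold change -0.15, adjusted p = 0.366). For Sema6d, the ligand (-0.77) and Plxna4 (-1.08) fell and Plxna1 did not pass. Its partner Trem2 fell from 914, 752 and 769 CPM to 606, 611 and 576 CPM (log2 fold change -0.44, SE 0.08, adjusted p = 0.00420). The adaptor gene Tyrobp did not pass (642 ± 48.4 against 674 ± 23.7 CPM, log2 fold change 0.07). For class 3, no ligand gene passed. Of the receptor genes, both neuropilins and Plxnd1 rose, Plxna4 fell, and Plxna1, Plxna2 and Plxna3 did not pass.

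Beyond the families themselves, 67 partner genes were read from the same fit: 64 were tested, 7 rose, 16 fell and 41 did not pass, so 35.9% passed against 26.5% of all genes. Among 16 other receptors and receptor partners tested, 2 rose and 4 fell. Kdr, which encodes VEGF receptor 2 and joins Plxna1 in Sema6d signalling, was at 12.2, 14.9 and 14.2 CPM after C CM and at 40.1, 36.3 and 37.1 CPM after AC CM. It rose 2.75-fold (log2 fold change 1.46, SE 0.10, adjusted p = 2.68e-05). The other VEGF receptor genes were lower: Flt4 at -1.23 (SE 0.29, adjusted p = 0.0134) and Flt1 at -2.18 (SE 0.56, adjusted p = 0.0192). The Flt4 call was lost without C3 (0.0526) or AC2 (0.0572), and the Flt1 call without C1 (0.0738) or AC1 (0.0593). Kdr, Flt1 and Flt4 are endothelial genes as well, and the endothelial markers given above fell. Their part in these 3 values was not tested. Met, a partner of B plexins, was at 6.31 ± 0.935 and 4.36 ± 0.816 CPM and did not pass (adjusted p = 0.0635). Erbb2 of the same list, named after its values were seen, fell (7.36 ± 0.726 against 5.21 ± 0.193 CPM). Its log2 fold change was -0.50 (SE 0.14, adjusted p = 0.027), and its leave-one-out values are not given here.

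Of the 5 other neuropilin ligand genes tested, 3 fell and none rose. Vegfb, named after its values were seen, was at 14.6 ± 3.42 and 20 ± 1.47 CPM with no overlap and did not pass (log2 fold change 0.45, adjusted p = 0.0678), but was called higher with DESeq2, with limma-voom and without C1. Pgf, which encodes placental growth factor, was at 6.68, 6.83 and 9.45 CPM and then at 2.97, 3.44 and 3.16 CPM, with no overlap (log2 fold change -1.26, SE 0.18, adjusted p = 0.00107). Vegfc was at -0.66 (adjusted p = 0.0335), a call lost with any 1 library left out (adjusted p = 0.0654 to 0.105). Vegfa was at -0.24 (71.7 ± 3.57 against 60.7 ± 2.88 CPM, adjusted p = 0.0392). Its call held without C1 (0.0435) and was lost without any other single library (0.0590 to 0.154). Of 6 protease genes for shedding and processing, Mmp14, which can release Sema4d from the membrane, fell by 0.50 on the log2 scale (139 ± 10 to 98.1 ± 1.94 CPM, adjusted p = 0.00108). Adam17 did not pass. It was at 159, 315 and 294 CPM after C CM and 216, 354 and 344 CPM after AC CM, lowest in replicate 1 of each group.

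Of 12 small GTPase genes, 3 rose and 3 fell. Rac1 (0.37, adjusted p = 0.00376), Cdc42 (0.39, adjusted p = 0.0103) and Rap1b (0.33, adjusted p = 0.00360), which act on the cytoskeleton and adhesion, rose. Rras (-0.58, adjusted p = 0.00308) and Mras (-0.50, adjusted p = 0.0176), which are Ras relatives, fell. The Mras call was lost without AC1 (0.0597) or AC3 (0.0722). Of 17 regulators and effectors 2 rose, 2 fell and 13 did not pass. The kinase gene Pak1 fell by 0.39 (adjusted p = 0.00651). Mical1, an enzyme that oxidizes actin downstream of plexins, was at -0.42 (adjusted p = 0.0186). Gipc1, which binds the neuropilin tail, was at 0.42 (adjusted p = 0.0246) and the actin-severing gene Cfl1 at 0.21 (adjusted p = 0.0472). Each of these 3 calls was lost in leave-one-out fits: Mical1 without C2 (0.0603), AC1 (0.0714) or AC2 (0.0836), and Gipc1 and Cfl1 without any single library but C1 (0.0614 to 0.0905 and 0.106 to 0.184). Of 8 kinase and collapsin response mediator genes tested, Dpysl3 (-0.59, adjusted p = 3.55e-04), Crmp1 (-2.11, adjusted p = 0.00442) and the kinase gene Fes (-0.36, adjusted p = 0.0116) fell. Crmp1 was at only 1.23 ± 0.343 CPM after C CM, and the Fes call was lost without AC1 (0.0547).

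**Figure D4:**
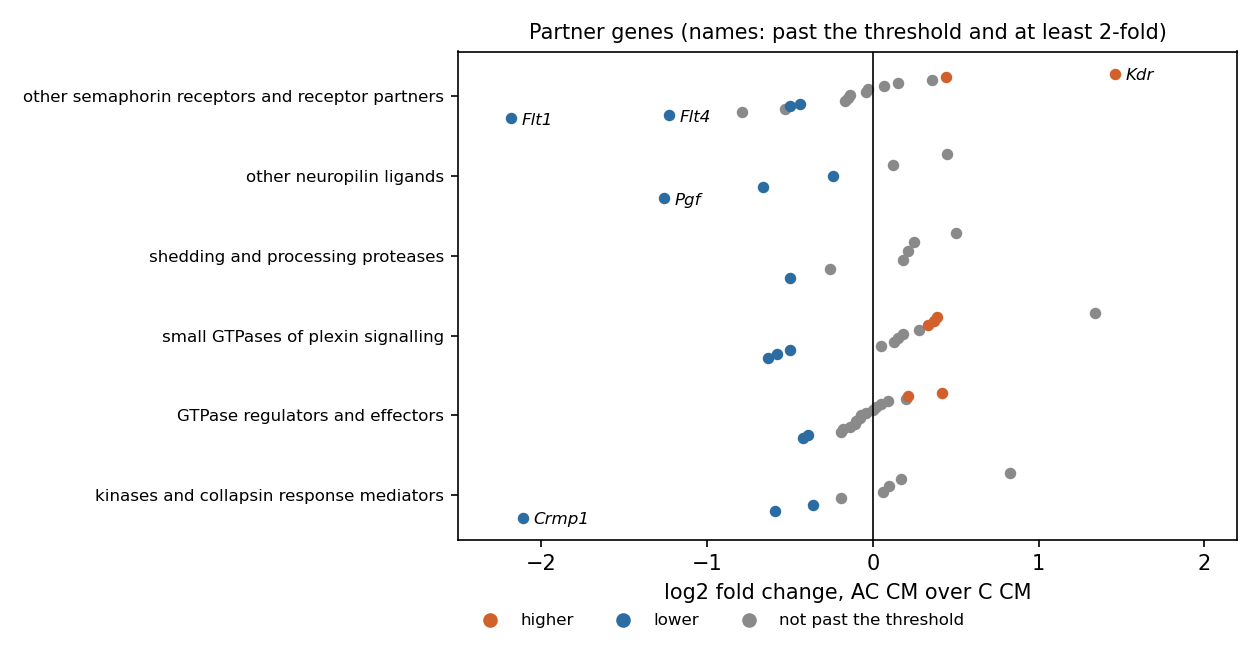
Log2 fold change of AC CM over C CM (x axis) for each of the 64 partner genes tested, in 6 lists (y axis), coloured by call. Kdr stands alone on the right among the called genes, at 1.46, and Flt1, Crmp1, Pgf and Flt4 lie farthest left.

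Of the 13 members past the threshold, 9 stayed past it with each library left out in turn: Nrp1, Nrp2, Plxna4, Plxnb1, Plxnb2, Sema4a, Sema4d, Sema5a and Sema7a. Plxnd1, Sema4b, Sema4c and Sema6d each lost the call in some of these fits, as given above, and all 13 kept their direction in every one. Without AC2 and AC3, the libraries with most liver transcripts, the only AC CM library is assumed to vary like the C CM libraries. Nrp2 (adjusted p = 0.0198), Sema4a (0.00799) and Sema7a (0.0369) then passed. The other 10 did not, but their log2 fold changes, such as 0.45 for Nrp1, -0.49 for Sema4d and -0.45 for Plxnb2, had the same sign as with all libraries. The authors' deposited table called 14 of the members, these 13 in the same direction and Sema4f.

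**Figure D5:**
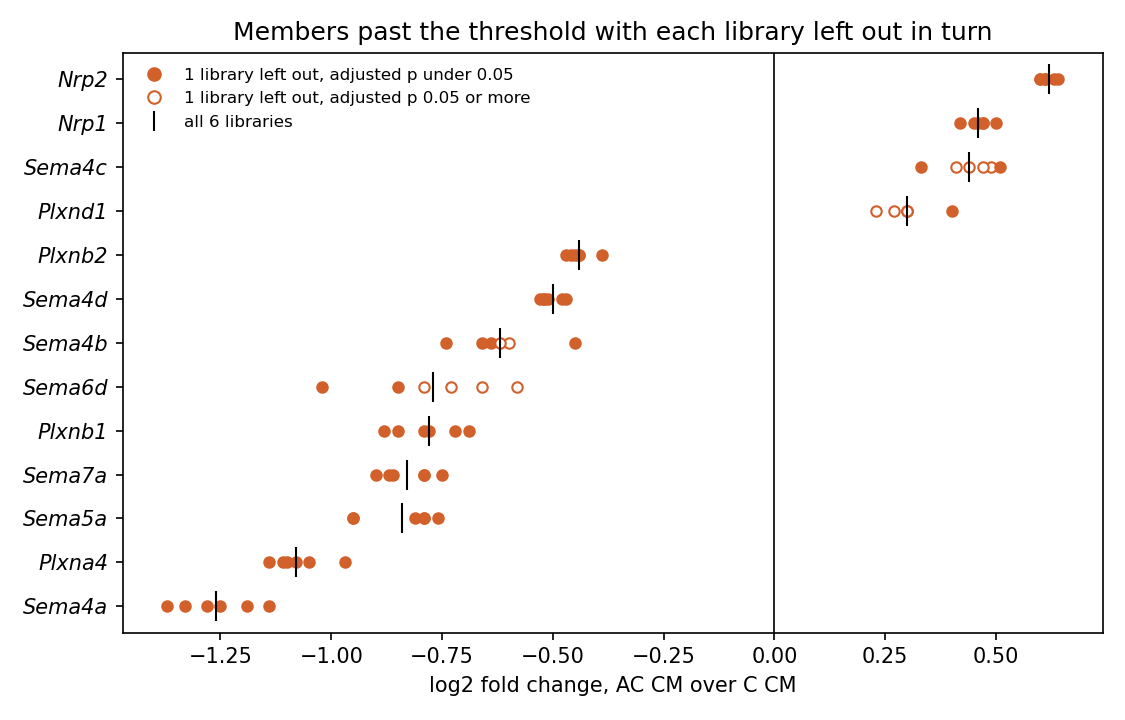
Log2 fold change (x axis) of the 13 members past the threshold (y axis) with all 6 libraries (black tick) and with each library left out in turn (circles, filled where the adjusted p is under 0.05). Open circles occur for Plxnd1, Sema4b, Sema4c and Sema6d, and no circle crosses 0.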

How the data were processed

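Messenger RNA libraries of 6 samples were sequenced on an Illumina instrument, per the labels' protocols. The authors deposited a table of whole-number read counts per gene, not normalized. Its normalized signal columns, which the authors deposited as counts divided by a constant per sample, were not used. Its log2 fold changes and its p-values, adjusted ones included, are the authors' deposited comparison and were only read. Tools listed without roles, per the submitters' processing notes, are HISAT2 2.1.0, fastp 0.17.1, R 3.4.3 and DESeq2 1.18.1. Counter, strand setting and build: not given in the sources used here, so antisense reads may not be separable. Of the identifiers found in GENCODE M21 (GRCm38), 95.2% had the same coordinates, as had 27 of the 31 members. Exon lengths are unions of M21 exons.

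After filterByExpr and TMM scaling, edgeR 4.0.16 (R 4.3.3) fitted group as the only term, with glmQLFit (robust) and glmQLFTest, and Benjamini-Hochberg adjustment over 17863 genes. The SE is the log2 fold change over the root of the F statistic. Tested on simulated data, p-values of unchanged genes were calibrated, and the share of false calls was under the nominal rate when as many genes changed as were called here. It exceeded that rate with edgeR, limma-voom and DESeq2, most with DESeq2, when few genes changed, among genes of high dispersion. Large changes under 5 CPM were often missed. A first recovery criterion over all levels was not met and was replaced by one for genes at 5 CPM or more. Alternatives were DESeq2 1.42.0, limma-voom (limma 3.58.1), other scalings and filters, a replicate block, counts divided by 4, AC CM replicates 2 and 3 left out, and each replicate left out. Correlations of same-numbered samples over all genes (-0.062, 0.031 and 0.038) showed no pairing, but cannot exclude it. Replicates of a group were not copies (chi-square per gene of 27.2 to 63.2). Members passing the threshold or with a mean of at least 5 CPM are named, with up to 5 passing partners per list and 7 fixed ones. Members, lists and tests were chosen with earlier results of these data known. Promoter windows are RefSeq's (GRCm38.p6). Total counts of 65630784 to 80105872 per library set the counting precision, and low counts favour multiples of 4 (394 to 446 genes at a count of 3, 696 to 814 at 4).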

Additional observations from a re-analysis of the deposited data

How the results depend on the processing

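All 13 members past the threshold kept their direction under every alternative run. They kept their calls with 3 other scalings, 2 other filters, DESeq2, limma-voom, counts divided by 4 and the replicate block. With each library left out in turn, 2 to 5 members were called higher and 7 to 9 lower, 5 to 11 partner genes higher and 9 to 14 lower, and 1511 to 2667 of all genes higher and 1647 to 2356 lower. Without AC2 and AC3 together, 1 member was called higher and 2 lower, 1 partner higher and 2 lower, and 510 of all genes higher and 764 lower. Fewer samples entered those fits. DESeq2 added Sema4f, Sema4g and Sema6a, and counts divided by 4 added Sema4f, Sema3g and Sema6a. Signs turned only for genes that did not pass: Sema3d (-1.11) and Adam17 (-0.25) without AC2 and AC3, Plxna3 (-0.11 to 0.10), Sema3d (-0.38 to 0.81) and Sema6b (-0.03 to 0.25) over the fits that left out 1 library. The cause was not tested. The replicate block left 4 members higher and 9 lower, and gave 8 partners higher and 13 lower: Adam17 was added (adjusted p = 0.0362) and Rnd1, Vegfa and Vegfc were lost. AC1 correlated less with C1 (-0.062) than with C2 (0.053), so the correlations over all genes showed no pairing by number. Values this near 0 cannot exclude a source shared by same-numbered samples. Low counts limit the class 3 genes, Sema4f, Sema4g, Sema6a and Sema6c, whose 95% intervals were 0.85 to 4.19 wide on the log2 scale, against 0.31 to 0.78 for the other members that did not pass.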
